A study of Mus musculus with 8 samples.

Results

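The Frizzled genes encode the seven-pass cell surface receptors for Wnt ligands. They were followed in whole skin of newborn mice that lacked pRb, p53 or both in their stratified epithelia. All probe sets of the array with Fzd1 to Fzd9 as their single gene symbol were taken, which gave 17 probe sets of 9 genes out of 22626 probe sets tested. The array carried 5 of these genes on more than 1 probe set, and Fzd1, Fzd5, Fzd8 and Fzd9 on 1 probe set each. The samples were 8 arrays, 2 for each of 4 genotypes, and RNA of 3 FVB animals of 1 genotype was pooled for each array. Double-null skin was pRb-/-;p53-/-, p53-/- skin was pRb+/+;p53-/-, and pRb-/- skin was pRb-/-;p53+/+. The fourth group was labelled control, without a spelled-out genotype. No source used here names the promoter that drove the deletion. Whole skin also holds dermis, vessels, muscle and fat, in which the labels describe no deletion.

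A Frizzled protein binds a Wnt through its extracellular cysteine-rich domain and passes the signal to Dishevelled inside the cell. With the co-receptors Lrp5 or Lrp6 this protects beta-catenin from destruction and turns on TCF/LEF target genes, and without them Frizzled can steer planar cell polarity, the alignment of cells within a sheet. In skin, Wnt signalling through beta-catenin is needed for hair follicles to form, and Fzd6 in mice is known for orienting hair follicles along the body.

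The deposited values are scores, standardized so that each probe set averages 0 with an SD of 1 across the 8 arrays. A difference between genotypes is therefore in units of that probe set's own SD, and gives neither an expression level nor a fold change. No level can be compared between genes, and whether a Frizzled probe set rose above background on any array cannot be read from scores. For the same reason the defining markers of skin could not be checked for presence. In whole skin, fewer cells that carry a receptor and less of its RNA per cell cannot be told apart. A difference was called at an adjusted p under 0.05 in limma's linear model on all 8 arrays, without variance moderation, with Benjamini-Hochberg adjustment over all 22626 probe sets. Precision is limited by the number of arrays. It is unknown if the arrays of 1 genotype came from different pools, so the p-values reflect only how these arrays varied, possibly for technical reasons.

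The arrays of 1 genotype correlated with each other across probe sets with r from 0.117 to 0.339, and arrays of different genotypes with r from −0.388 to 0.093. These are correlations of standardized scores, from which the level of each probe set has been removed. They therefore do not measure how well arrays match in expression level. Rb1, the gene deleted in 2 of the genotypes, was measured by 1 probe set with scores of −0.55 and −1.90 in double-null skin, 0.50 and 0.22 in p53-/- skin, −0.71 and 0.44 in pRb-/- skin, and 1.20 and 0.80 in control skin. None of its differences from control was called, and which part of Rb1 this probe set reads is unknown here, so it gives no check of the labels. No Trp53 values are reported, as it was not analysed here. Of the 64 quality control probe sets of the array, 20 had both control arrays below all 6 mutant arrays, and 2 had them above, where the whole array had 6.94% and 5.71%. The comparisons of double-null, p53-/- and pRb-/- skin with control all share the same 2 control arrays.

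RefSeq promoter windows were at hand for 5 of the 9 genes, Fzd1, Fzd4, Fzd5, Fzd7 and Fzd9. Those of Fzd4 and Fzd7 are shown because 1 probe set of each had, after 1 of Fzd6, the clearest separation of genotypes. The other probe set of each gene separated the genotypes less clearly. Each window runs 5′ to 3′ on the plus strand of GRCm38.p6, from 250 bases before to 50 bases after the gene start. Capitals mark GC boxes (GGGCGG, the Sp1 motif), CCAAT boxes (CCAAT) and TCF/LEF motifs (CTTTG followed by AA, AT, TA or TT), on either strand.
Fzd4, chr7:89404116-89404415: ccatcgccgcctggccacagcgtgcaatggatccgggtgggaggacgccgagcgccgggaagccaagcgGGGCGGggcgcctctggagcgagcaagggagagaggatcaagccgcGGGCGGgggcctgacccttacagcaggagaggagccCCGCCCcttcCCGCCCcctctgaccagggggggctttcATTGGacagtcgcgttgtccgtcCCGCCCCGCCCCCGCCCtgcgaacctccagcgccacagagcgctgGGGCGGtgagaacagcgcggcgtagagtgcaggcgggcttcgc
Fzd7, chr1:59481897-59482196: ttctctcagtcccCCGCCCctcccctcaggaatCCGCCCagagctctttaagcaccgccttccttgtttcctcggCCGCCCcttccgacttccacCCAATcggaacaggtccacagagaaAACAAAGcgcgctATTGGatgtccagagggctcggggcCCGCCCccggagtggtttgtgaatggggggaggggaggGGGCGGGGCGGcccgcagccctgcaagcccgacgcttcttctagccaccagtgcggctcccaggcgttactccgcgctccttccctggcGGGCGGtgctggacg
The Fzd4 window held 8 GC boxes and 1 CCAAT box, with overlapping GC boxes counted separately. The Fzd7 window held 7 GC boxes, 2 CCAAT boxes and 1 TCF/LEF motif. Of the windows not shown, Fzd5 held 10 GC boxes and 1 CCAAT box, Fzd9 held 1 GC box, and Fzd1 held none of these motifs. Over 32851 promoter windows of the same length, 35.7% held a GC box, 37.4% a CCAAT box and 16.9% a TCF/LEF motif. The E2F motif was searched as TTTCCCGC, TTTCGCGC, TTTGCCGC and TTTGGCGC on both strands. It occurred in 2.26% of all windows and had 0 matches in the 5 Frizzled windows.

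**Figure D1:**
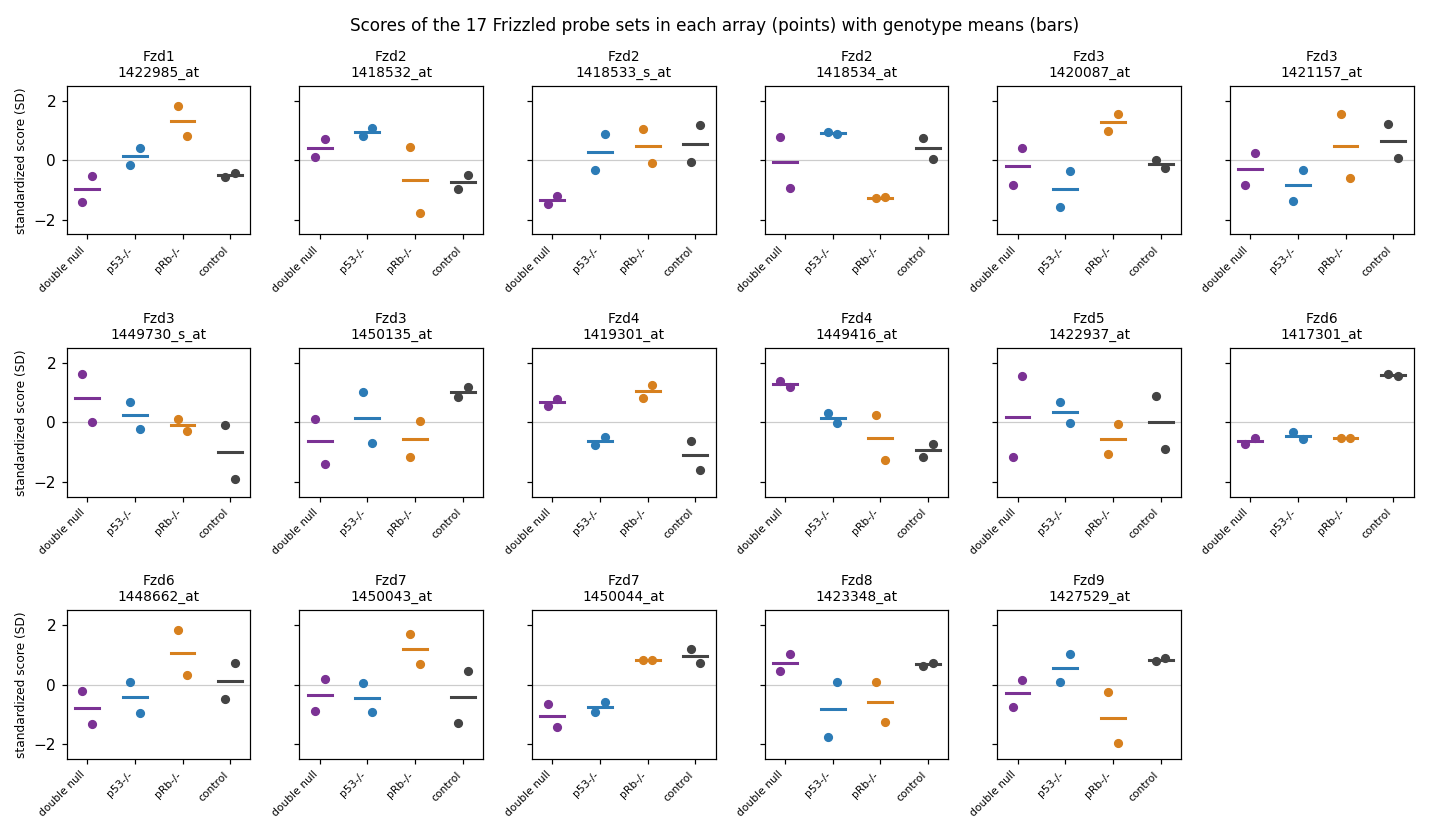
Standardized score (y axis, in SD of each probe set over the 8 arrays) of all 17 Frizzled probe sets, by genotype (x axis); points are single arrays and bars are genotype means. Fzd6 1417301_at stands apart in control skin at 1.64 and 1.58, with all 6 mutant arrays between −0.73 and −0.32.

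Of the 17 probe sets, the 1 that passed the test was 1417301_at of Fzd6, and the gene's other probe set did not. Probe set 1417301_at scored −0.73 and −0.53 in double-null skin, −0.32 and −0.56 in p53-/- skin, −0.53 and −0.54 in pRb-/- skin, and 1.64 and 1.58 in control skin. Both control arrays thus lay above all 6 mutant arrays, which lay close together. After standardization, any clean split of 2 arrays from 6 gives scores of about this size, however small the change in expression. The probe set fell by 2.24 ± 0.11 (SE) in double-null skin against control (adjusted p = 0.028), and it fell by 2.05 ± 0.11 in p53-/- skin (adjusted p = 0.046). In pRb-/- skin the difference was of the same size, −2.15 ± 0.11, but was not called (adjusted p = 0.091). Among the mutants, double-null skin differed from p53-/- skin by −0.19 ± 0.11 (adjusted p = 0.57) and from pRb-/- skin by −0.10 ± 0.11 (adjusted p = 0.69). The interaction, which asks whether the p53 difference depends on pRb, was 1.96 ± 0.16 and was not called (adjusted p = 0.15). The test over all 4 genotypes had an adjusted p of 0.052.

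Both calls on Fzd6 were lost when any 1 of the 8 arrays was left out, at an adjusted p of 0.095 to 0.149 for double-null skin and 0.129 to 0.259 for p53-/- skin, while the differences stayed between −2.34 and −2.14 and between −2.17 and −1.93. The moderated test of limma, quantile normalization and the fit of only the 2 groups compared also ended both calls. Fzd6 has a second probe set, 1448662_at, made from the same transcript record, and it did not show this pattern. Its scores were −0.23 and −1.34 in double-null skin, 0.082 and −0.94 in p53-/- skin, 1.84 and 0.33 in pRb-/- skin, and −0.48 and 0.74 in control skin. The pRb-/- arrays lay above the double-null and p53-/- arrays, and all other pairs of genotypes overlapped. Its difference from control was −0.91 ± 0.87 in double-null skin, −0.56 ± 0.87 in p53-/- skin and 0.95 ± 0.87 in pRb-/- skin. The 2 probe sets correlated over the 8 arrays with r = 0.087, and their mean was not called, at an adjusted p of 0.21 in double-null skin and 0.34 in p53-/- skin.

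Over all 22626 probe sets, 5.71% had both control arrays above the 6 mutant arrays, as Fzd6 1417301_at did, and 6.94% had them below. Among the 64 quality control probe sets, 2 had them above and 20 below, and the part of such a shift of the control arrays in the Fzd6 result was not tested. The probe sets of other genes most like it over the 8 arrays were those of Ints6l (r = 0.975), Ntmt1 (r = 0.972) and Pax6 (r = 0.970), out of 7 with r above 0.95. These correlations describe 8 shared arrays in 4 genotype pairs. Hair follicle markers, keratins and regulators of the follicle matrix and shaft, also moved with the genotypes. Their mean score over 17 probe sets of 16 of 18 listed genes was −1.50 to −1.13 in double-null skin, −0.33 to −0.26 in p53-/- skin, 0.54 to 0.65 in pRb-/- skin and 0.98 to 1.06 in control skin. Of these probe sets, 12 fell in double-null skin against control, where 0.849% of the array was called, and 0 in p53-/- and pRb-/- skin, where 0.119% and 0.0% were. At an unadjusted p under 0.05, 16 were lower and 0 higher in p53-/- skin, beside 7.24% and 7.32% of the array. In pRb-/- skin 7 were lower and 1 higher, beside 4.22% and 6.38%. With 1 array left out, between 1 and 8 probe sets of the whole array were called in double-null skin against control. Their part in the Fzd6 result was not tested.

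**Figure D2:**
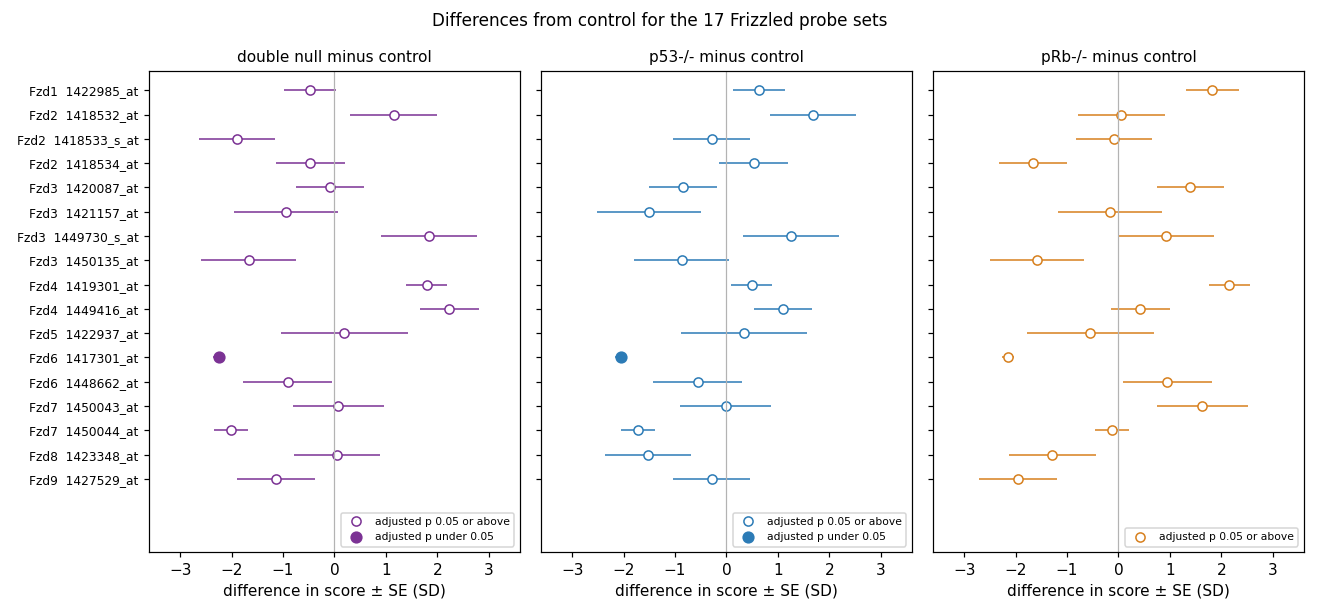
Difference in score from control (x axis, SD units, ± SE) for each of the 17 Frizzled probe sets (rows), in double-null, p53-/- and pRb-/- skin; filled points have an adjusted p under 0.05. Fzd6 1417301_at is the filled point in double-null skin (−2.24) and in p53-/- skin (−2.05), and no point is filled in pRb-/- skin.

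Across the family, 1 of 17 probe sets was called in double-null skin against control, where 0.849% of all probe sets were called, and 1 of 17 in p53-/- skin, where 0.119% were. In pRb-/- skin 0 of 17 Frizzled probe sets were called, and 0 of all 22626 (0.0%). At an unadjusted p under 0.05 the counts in limma's model were 4, 2 and 3 of 17 in double-null, p53-/- and pRb-/- skin, against 18.6%, 14.6% and 10.6% of all probe sets. Groups did not overlap for 9 of 17 Frizzled probe sets in each of these comparisons, against 51.2%, 52.7% and 41.0% of all. The last 2 kinds of share are near those of the whole array in double-null and p53-/- skin, and higher in pRb-/- skin. With 17 probe sets the counts are small, and the calls rest on 1 probe set. The median difference over the 17 probe sets was −0.47 in double-null skin, −0.29 in p53-/- skin and −0.083 in pRb-/- skin, beside medians over all probe sets of −0.0081, −0.16 and 0.065.

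Set against the single mutants, double-null skin had 0 of 17 Frizzled probe sets called. The whole array had 0.0354% called against p53-/- skin and 0.407% against pRb-/- skin. At an unadjusted p under 0.05 there were 1 of 17 against p53-/- skin and 3 of 17 against pRb-/- skin, where the array had 11.9% and 18.6%. Groups did not overlap for 7 of 17 and 10 of 17, against 49.5% and 50.1% of the array. The interaction called 0 of 17 and 0.0% of the array, with 2 of 17 and 10.4% at an unadjusted p under 0.05. The test over all 4 genotypes called 0 of 17 and 0.159% of the array, with 4 of 17 and 18.6% at an unadjusted p under 0.05. The moderated test of limma called 0 probe sets in each of these comparisons.

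Fzd3, the closest relative of Fzd6 and a planar polarity receptor known for guiding axons, was read by 4 probe sets that did not move together. Probe set 1420087_at scored −0.83 and 0.43 in double-null skin, −1.57 and −0.37 in p53-/- skin, 1.00 and 1.57 in pRb-/- skin, and 0.017 and −0.25 in control skin. Here the pRb-/- arrays were above all others, with a difference from control of 1.40 ± 0.66 (adjusted p = 0.56). How many probe sets of the whole array had pRb-/- skin above all others was not counted. Probe set 1450135_at scored 0.12 and −1.39 in double-null skin, 1.02 and −0.70 in p53-/- skin, −1.16 and 0.047 in pRb-/- skin, and 0.87 and 1.19 in control skin. The control arrays lay above the double-null and pRb-/- arrays there, and the difference of pRb-/- skin was −1.58 ± 0.92 (adjusted p = 0.63), opposite in sign to that of 1420087_at. The other 2 probe sets, 1421157_at and 1449730_s_at, differed from control in double-null skin by −0.94 ± 1.01 and 1.83 ± 0.93. The 6 pairs among the 4 probe sets had r from −0.487 to 0.528, and 5 of the 6 were below 0.

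Fzd7, Fzd1 and Fzd2 form a subfamily of close relatives that can signal through beta-catenin. Fzd7 probe set 1450044_at scored −0.67 and −1.42 in double-null skin, −0.91 and −0.60 in p53-/- skin, 0.85 and 0.82 in pRb-/- skin, and 1.19 and 0.74 in control skin. All 4 arrays of p53-deficient skin were below all 4 arrays of p53-intact skin, a split found in 8.15% of all probe sets. The difference was −2.01 ± 0.33 in double-null skin against control (adjusted p = 0.10), −1.72 ± 0.33 in p53-/- skin against control (adjusted p = 0.17) and −1.88 ± 0.33 in double-null skin against pRb-/- skin (adjusted p = 0.12). Where only pRb differed it was small, −0.13 ± 0.33 in pRb-/- skin against control (adjusted p = 0.92) and −0.29 ± 0.33 in double-null skin against p53-/- skin (adjusted p = 0.75). None of these was called. Probe sets with the most similar scores were those of the mitochondrial genes Mdh2 (r = 0.992), Slc25a5 (r = 0.985) and Tomm70a (r = 0.980), out of 27 with r above 0.95 over the 8 arrays.

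The other Fzd7 probe set, 1450043_at, scored −0.89 and 0.20 in double-null skin, 0.042 and −0.91 in p53-/- skin, 1.71 and 0.70 in pRb-/- skin, and −1.31 and 0.46 in control skin. Its pRb-/- arrays were the highest, and its control arrays lay apart, 1 of them below every other array. The share of probe sets with pRb-/- arrays highest was not counted over the whole array. The difference from control was 0.076 ± 0.88 in double-null skin and −0.011 ± 0.88 in p53-/- skin, so the separation by p53 was not seen with it. The pair had r = 0.233.

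Fzd1 had scores of −1.40 and −0.54 in double-null skin, −0.14 and 0.41 in p53-/- skin, 1.83 and 0.83 in pRb-/- skin, and −0.57 and −0.42 in control skin. The pRb-/- arrays were above the other 6, and double-null skin was among the lowest. The share of all probe sets with pRb-/- arrays above the other 6 was not counted. The difference was 1.83 ± 0.51 in pRb-/- skin against control (adjusted p = 0.38) and −2.30 ± 0.51 in double-null skin against pRb-/- skin (adjusted p = 0.16). The p53 difference was 0.63 ± 0.51 where pRb was intact (adjusted p = 0.63), and the interaction of −2.94 ± 0.72 was not called (adjusted p = 0.36). Fzd1 and Fzd6 were the members with an unadjusted p under 0.05 for the interaction, in opposite directions.

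Fzd2 was read by 3 probe sets, with pairwise r of −0.038, 0.295 and −0.118. Probe set 1418533_s_at scored −1.46 and −1.20 in double-null skin, −0.32 and 0.88 in p53-/- skin, 1.05 and −0.077 in pRb-/- skin, and −0.072 and 1.21 in control skin. The double-null arrays were below the other 6, as in 10.2% of all probe sets, with a difference from control of −1.90 ± 0.74 (adjusted p = 0.29). Probe set 1418534_at was lowest in pRb-/- skin, at −1.28 and −1.24 against 0.76 and 0.035 in control skin, a difference of −1.66 ± 0.67 (adjusted p = 0.51). Probe set 1418532_at was highest in p53-/- skin, at 0.82 and 1.10 against −0.96 and −0.48 in control skin, a difference of 1.68 ± 0.84 (adjusted p = 0.45). Each Fzd2 probe set thus had another genotype at its extreme, and none passed the test. For pRb-/- skin lowest or p53-/- skin highest, the share over the whole array was not counted.

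**Figure D3:**
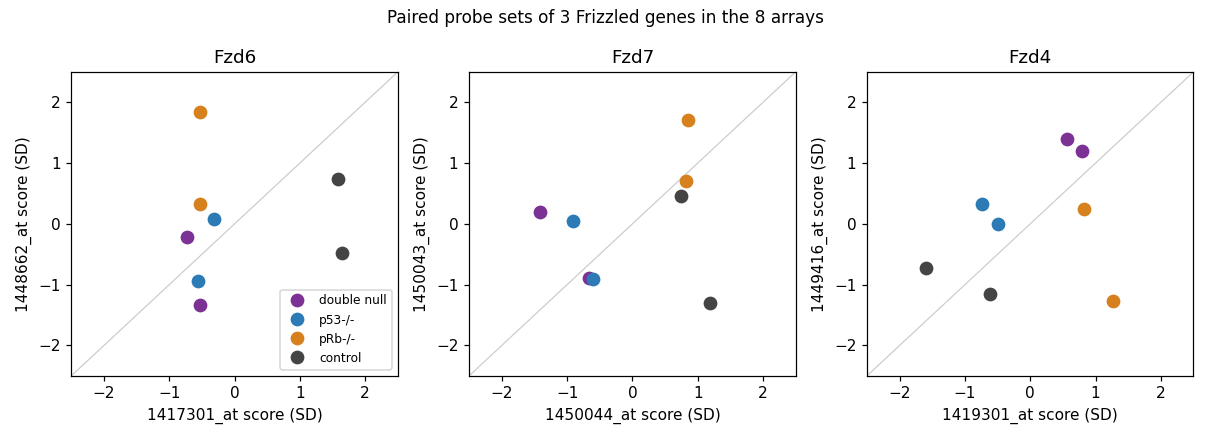
Scores of the 2 probe sets of Fzd6, Fzd7 and Fzd4 against each other (x and y axes, SD units), 1 point per array coloured by genotype; the grey line marks equal scores. The pairs had r of 0.087, 0.233 and 0.282, and in Fzd4 both double-null arrays are high on both probe sets.

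Fzd4, which in mice is the receptor for Norrin in vessel endothelium as well as a Wnt receptor, had 2 probe sets, both higher on average in double-null skin than in control skin. Probe set 1419301_at scored 0.57 and 0.80 in double-null skin, −0.75 and −0.49 in p53-/- skin, 0.82 and 1.27 in pRb-/- skin, and −0.62 and −1.60 in control skin. All 4 arrays of pRb-deficient skin were above all 4 arrays of pRb-intact skin, a split found in 2.85% of all probe sets. Several splits of the arrays by genotype were looked for in all 17 Frizzled probe sets, and each share given is that of 1 split alone. The difference from control was 1.79 ± 0.40 in double-null skin (adjusted p = 0.15), 0.49 ± 0.40 in p53-/- skin (adjusted p = 0.63) and 2.16 ± 0.40 in pRb-/- skin (adjusted p = 0.27). Double-null skin differed from p53-/- skin by 1.30 ± 0.40 (adjusted p = 0.37). The most similar probe sets were those of the myelin gene Mbp (r = 0.975), the potassium channel Kcnj6 (r = 0.969) and the mitochondrial carrier Slc25a10 (r = 0.955), which were the 3 with r above 0.95. For Mbp this was 1425263_a_at, and another of its probe sets, 1456228_x_at, fell in double-null skin by 2.06 against control (adjusted p = 0.024).

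The second Fzd4 probe set, 1449416_at, scored 1.39 and 1.20 in double-null skin, 0.32 and −0.0065 in p53-/- skin, 0.25 and −1.27 in pRb-/- skin, and −1.15 and −0.73 in control skin. The double-null arrays were above the other 6, as in 7.85% of all probe sets, but pRb-/- skin overlapped control. The difference was 2.23 ± 0.57 in double-null skin (adjusted p = 0.18) and 0.43 ± 0.57 in pRb-/- skin (adjusted p = 0.84), each against control, and 1.81 ± 0.57 in double-null against pRb-/- skin (adjusted p = 0.24). The mean of both Fzd4 probe sets differed by 2.01 in double-null skin against control, with an adjusted p of 0.056 over genes. The mean score of 10 probe sets of 9 endothelial genes was 0.50 to 1.05 in double-null skin, −0.23 to −0.11 in p53-/- skin, −0.27 to 0.035 in pRb-/- skin and −0.63 to −0.35 in control skin. Of these, 5 were higher and 0 lower in double-null skin against control at an unadjusted p under 0.05, beside 8.72% and 9.93% of the array, and 0 were called. Other lists were also highest in double-null skin, among them macrophages at 0.71 to 1.05 and suprabasal keratinocytes at 0.36 to 1.08. Hair follicle and melanocyte markers were lowest there. Adipocyte markers were at 0.64 to 0.99 in double-null, −1.28 to −1.24 in p53-/- and 0.60 to 0.65 in pRb-/- skin, and −0.18 in both control arrays. The part of any of these lists in the Fzd4 values was not tested.

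Fzd9, Fzd5 and Fzd8 had 1 probe set each, and none passed the test. Fzd9, a receptor studied mostly in brain and bone, scored −0.75 and 0.16 in double-null skin, 0.096 and 1.02 in p53-/- skin, −0.26 and −1.96 in pRb-/- skin, and 0.81 and 0.89 in control skin. It was lowest on average in pRb-/- skin, with a difference from control of −1.96 ± 0.76 (adjusted p = 0.50). Fzd8 scored 0.46 and 1.02 in double-null skin, −1.77 and 0.10 in p53-/- skin, 0.085 and −1.27 in pRb-/- skin, and 0.64 and 0.74 in control skin. Both single mutants lay below control without overlap, at −1.53 ± 0.84 and −1.28 ± 0.84 (adjusted p = 0.49 and 0.67), while the double-null arrays spanned the control values. Its interaction was 2.86 ± 1.19 (adjusted p = 0.53). Fzd5, the relative of Fzd8, had the largest SE of the family. It scored −1.17 and 1.57 in double-null skin, 0.70 and −0.0089 in p53-/- skin, −1.05 and −0.039 in pRb-/- skin, and 0.89 and −0.89 in control skin. Its differences from control lay between −0.55 and 0.34 with an SE of 1.23.

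The 12 pairs of probe sets of the same Frizzled gene had a median r of −0.078 over the 8 arrays, and 7 of them were below 0. Over 12821 such pairs of all genes the median r was 0.215 and 34.7% were below 0. Fzd3 gave 6 of the 12 pairs, with a median of −0.31 and 5 below 0. The 6 pairs of the other genes had a median of 0.16 with 2 below 0, near the values of all genes. The genotype that stood apart in Fzd2, Fzd3, Fzd6 and Fzd7 differed between probe sets of the same gene. In Fzd4, double-null skin was high on both probe sets. However, pRb-/- skin was the highest on 1419301_at and overlapped control on 1449416_at.

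The rest of the pathway was counted in gene lists by role. Some lists shared genes, so their counts and medians are not all of separate probe sets. Lgr5 was in the lists of co-receptors and of targets, and Dvl1 in those of Dishevelled and of planar polarity. In double-null skin against control, calls among the lists of ligands, co-receptors, inhibitors, transducers and targets were limited to Wnt5a, a ligand of non-canonical signalling. Wnt5a probe set 1448818_at scored −1.63 and −1.27 in double-null skin, −0.048 and −0.26 in p53-/- skin, 0.79 and 1.03 in pRb-/- skin, and 0.72 and 0.67 in control skin. It fell in double-null skin by 2.14 against control (adjusted p = 0.038), and it fell by 2.36 against pRb-/- skin (adjusted p = 0.045). Both calls ended under the moderated test, the fit of only the groups compared and the block on array number, which left 0 calls on the whole array. Of the 23 ligand probe sets, 2 were higher and 3 lower in double-null skin against control at an unadjusted p under 0.05, near the 8.72% and 9.93% of the array. The median over the list was 0.090. The keratinocyte ligand Wnt7b was among the higher ones, at 1.35 and 1.25 in double-null skin against −0.67 and −1.61 in control skin.

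Wnt feedback and target genes had the lowest median of the lists in double-null skin, −1.87 over 18 probe sets of 14 genes. Of these, 10 were lower and 1 higher at an unadjusted p under 0.05, where 9.93% and 8.72% of all probe sets were, and 0 were called. In p53-/- skin the median was −0.53 with 6 lower and 2 higher, beside 7.24% and 7.32% of all probe sets. In pRb-/- skin it was −0.076 with 2 lower and 1 higher, beside 4.22% and 6.38% of all. Nkd2, a Dishevelled-binding feedback inhibitor, scored −1.15 and −1.52 in double-null skin, −0.099 and −0.50 in p53-/- skin, 1.32 and 0.92 in pRb-/- skin, and 0.59 and 0.43 in control skin. Lgr5, an R-spondin receptor and marker of follicle stem cells, had −0.87 and −1.26 in double-null skin, −0.51 and −0.97 in p53-/- skin, 0.66 and 1.28 in pRb-/- skin, and 0.84 and 0.82 in control skin. Both were lower in double-null skin than in pRb-/- and control skin without overlap. Several genes of this list are also expressed in the hair follicle, whose markers moved the same way as given above, and that part was not tested.

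**Figure D4:**
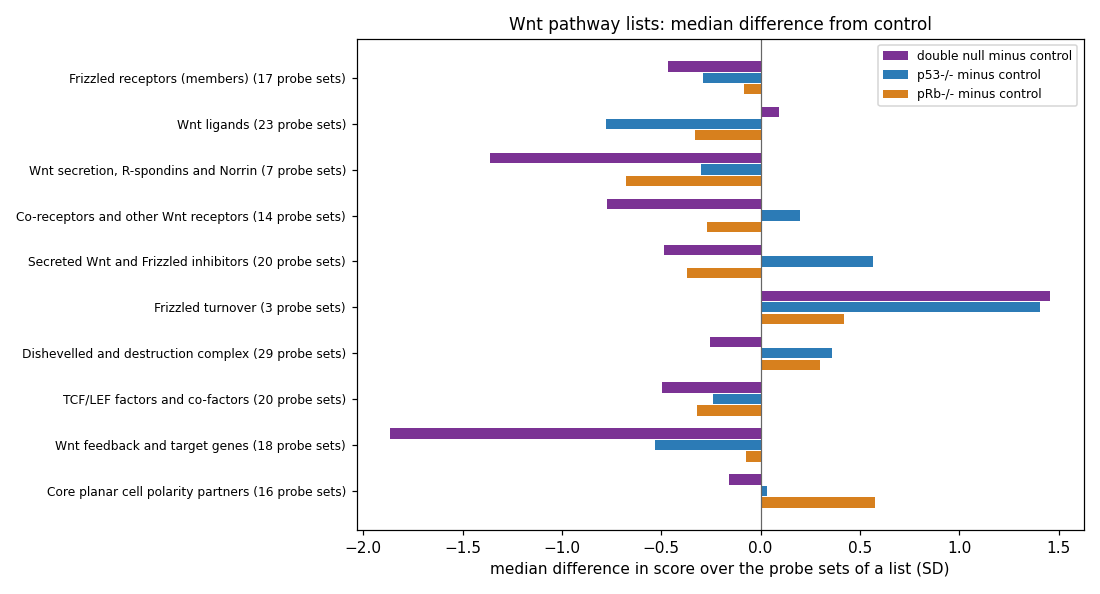
Median difference in score from control (x axis, SD units) over the probe sets of each Wnt pathway list (rows), with 1 bar each for double-null, p53-/- and pRb-/- skin. The Frizzled bars are −0.47, −0.29 and −0.083, and the longest bar belongs to the feedback and target genes in double-null skin at −1.87.

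The lists nearest to the receptors held 0 calls in the comparisons with control. The 7 probe sets of secretion factors, R-spondins and Norrin had a median of −1.36 in double-null skin, and 2 were lower and 0 higher at an unadjusted p under 0.05, beside 9.93% and 8.72% of the array. Wls, which carries Wnts to the cell surface, had −1.06 and −1.74 in double-null skin and −0.14 and 0.013 in control skin on probe set 1437434_a_at. Co-receptors and other receptors had a median of −0.77 over 14 probe sets in double-null skin, with 2 lower and 1 higher at an unadjusted p under 0.05. Smo, the Frizzled-class receptor of the Hedgehog pathway, was in that list and scored −1.61 and −1.07 in double-null skin and 0.89 and 1.36 in control skin. Secreted inhibitors had medians of −0.49, 0.57 and −0.37 over 20 probe sets in double-null, p53-/- and pRb-/- skin. In double-null skin, 4 of them were lower and 3 higher at an unadjusted p under 0.05. Sfrp2, a soluble protein with a Frizzled-like domain, scored −0.51 and −0.55 in double-null skin, 1.29 and 1.17 in p53-/- skin, −1.10 and −1.27 in pRb-/- skin, and 0.69 and 0.29 in control skin, so both pRb-deficient genotypes were below both pRb-intact ones. The share of that split over the whole array is not given here.

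In a list of ubiquitin ligases and other genes of Wnt receptor turnover, 3 of 5 were measured, namely Rnf43, Usp8 and Kremen1. Rnf43, a ligase that removes Frizzled from the cell surface, scored −1.05 and −0.56 in double-null skin, −0.50 and −0.55 in p53-/- skin, −0.15 and −0.13 in pRb-/- skin, and 0.87 and 2.06 in control skin. Like Fzd6 1417301_at it had both control arrays above all 6 mutant arrays. Usp8, a deubiquitinase that returns Frizzled to the surface, had both control arrays below all mutant arrays, at 0.76 and 1.08 in double-null skin against −1.83 and −1.003 in control skin. Planar polarity partners had medians of −0.16, 0.031 and 0.58 over 16 probe sets in double-null, p53-/- and pRb-/- skin. Celsr2, a polarity cadherin, scored −1.33 and −0.81 in double-null skin, −0.41 and −0.96 in p53-/- skin, 0.37 and 0.90 in pRb-/- skin, and 1.07 and 1.17 in control skin. Among Dishevelled and destruction complex genes the median was −0.26, 0.36 and 0.30 over 29 probe sets, and Dvl1 scored 1.38 and 1.21 in double-null skin against −0.61 and −0.85 in control skin. TCF/LEF factors and co-factors had medians of −0.50, −0.24 and −0.32 over 20 probe sets. Of these, 7 were lower and 2 higher in double-null skin at an unadjusted p under 0.05, beside 9.93% and 8.72% of the array. The counts were 5 lower and 1 higher for the Dishevelled list, and 4 lower and 1 higher for planar polarity partners. The co-repressor Tle3 was at −1.13 and −1.63 in double-null skin and 0.86 and 1.40 in control skin. None of these genes was called.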

How the data were processed

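Each array measured pooled RNA of 3 newborn FVB animals, and groups followed the sample titles. RMA is named in the submitters' processing notes, with no version. The authors deposited standardized scores: in each of the 22690 rows the mean is 0 and the SD 1, to within 1e-06. No source used here says whether logarithms were taken first, and scores allow no filter on dim probes. Symbols came from the platform annotation. After leaving out 64 control probe sets, 22626 were tested, of which 20380 had 1 symbol, 691 several and 1555 none.

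limma 3.58.1 in R 4.3.3 fitted 1 mean per genotype with 4 residual degrees of freedom. The ordinary statistic was used because it does not depend on a row's scale, and the code was tested on simulated data. Members, lists and tests were chosen with earlier results of these data known. All member probe sets are named. Several splits of the arrays by genotype were looked for in each of them, and a share given over the array is that of 1 split. In the lists, called probe sets and the 3 of smallest p over the 4 genotypes could be named. For the 3 Frizzled genes of smallest p, the 3 most similar probe sets are given. Alternatives were the moderated test, 2 normalizations, a replicate block, array weights, 3 choices of probe sets, fits of 2 groups and leaving out each array. Tables and plots used Python 3.11.15, pandas 2.3.3 and matplotlib 3.10.9.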

Additional observations from a re-analysis of the deposited data

How the results depend on the processing

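The count of called Frizzled probe sets was 1 in double-null skin against control. It became 0 under limma's moderated test, quantile normalization, the replicate block, averaging of probe sets per gene and the fit of only the 2 groups compared, and ranged from 0 to 0 with 1 array left out. It stayed 1 with array medians set to 0, array weights, probe sets with 1 symbol and 1 probe set per gene. In p53-/- skin against control the count of 1 became 0 under the same settings and also with array medians set to 0, and was again 0 to 0 with 1 array left out. The test over all genotypes called 1 in place of 0 with 1 probe set per gene. In the other comparisons the count was 0 under each setting. Deviations of same-numbered arrays correlated with r from -0.163 to 0.197, so the numbers were not taken as pairs, and the replicate block gave 0 calls in each comparison, with an adjusted p for Fzd6 1417301_at of 0.099 in double-null skin and 0.15 in p53-/- skin.

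The Fzd6 difference was smallest as the mean of both probe sets, at -1.58 in double-null, -1.31 in p53-/- and -0.60 in pRb-/- skin. Over the whole array, 192 probe sets were called in double-null skin against control, between 1 and 8 with 1 array left out, 1 after quantile normalization and 0 under the block. For p53-/- skin these counts were 27, 0 to 5, 0 and 0. Averaging per gene gave 118 and 15, 1 probe set per gene 125 and 17, and centred medians 205 and 8. Between double-null and pRb-/- skin the 92 calls became 25 with array weights, and 0 to 6 with 1 array left out. Against p53-/- skin the 8 calls became 4 with centred medians and 17 by gene averages. The 36 calls over all genotypes became 65 with 1 probe set per gene, and 0 to 1 with 1 array left out. The moderated test gave 0 calls throughout. Setting array medians to 0 moved the median of all differences from -0.16 to -0.048 in p53-/- skin, from 0.065 to -0.050 in pRb-/- skin, and from -0.15 to 0.020 between double-null and pRb-/- skin. Scores hide signal over background, so noise on dim probe sets could not be told from change.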
